A study of Homo sapiens with 2 samples.

Results

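The IL6 family was followed through 10 genes in A375, an established human melanoma cell line, after transfection of an siRNA against THOC2 (si-THOC2) or a negative control siRNA (NC). The members were 6 ligands (IL6, IL11, LIF, CLCF1, OSM and CTF1) and 4 receptors (IL6ST, IL6R, IL11RA and LIFR), out of 34757 gene symbols on the array. Every probe that carried one of these symbols was taken, which gave 20 probes. The family was selected on the same contrast described here, because IL6 was higher and IL11 was lower with si-THOC2, so all member values are a description and support nothing.

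THOC2 is a subunit of the THO complex, which takes part in the export of mRNA from the nucleus, and an siRNA is a small RNA duplex that directs the degradation of a matching mRNA. The labels give DMEM with fetal bovine serum as the medium of both groups, whereas the methods name an RPMI medium, and RNA was taken 48 h after transfection. Each condition had 1 culture on 1 one-colour Agilent array, and both arrays shared a slide and a scan. The title and the source field of each sample contradict each other on the siRNA, and the title, which the description matches, was used here. The siRNA on the array was 1 of several designed against THOC2, and the labels give it only as a number. With 1 array per condition no test was possible, and the spread between cultures is unknown. In a bulk sample of a single cell line, fewer cells that express a gene and less RNA per cell cannot be told apart.

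Cytokines of this family signal through gp130, the protein encoded by IL6ST. A ligand first binds a partner receptor (IL6R for IL6, IL11RA for IL11, LIFR for LIF, and CNTFR with LIFR for CLCF1), gp130 joins the complex, and Janus kinases bound to it phosphorylate STAT3, which then turns on target genes that include its own inhibitor SOCS3. In melanoma, IL6 is known as a secreted product of the tumor cells as well as of the cells around them.

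IL6 and IL11, the 2 ligands the choice rests on, were each read by probes of 60 bases, and the deposited annotation (hg19) gives their place but not the exon or untranslated region. The IL6 probes are at chr7:22771207-22771266 (probe 1) and chr7:22769363-22769422 (probe 2), both on the plus strand of 7p15.3, and the IL11 probe is at chr19:55875788-55875847 on the minus strand of 19q13.42. Probe 2 of IL6 belongs to a predicted transcript variant, X1. The first 30 bases of each, 5′ to 3′ and in lower case throughout, are shown because 2 probes of the same gene gave different detection.
IL6 probe 1: attgttgttgttaatgggcattccttcttc
IL6 probe 2: ccacttccaaaagagaaggctacacgtaaa
IL11 probe: gtgtatgattgtctgtattttacagaattt

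The 250 bases before the start site of the same 2 genes are shown because their transcripts differed in opposite directions. They come from RefSeq (GRCh38.p14, a build other than that of the probes), at chr7:22726950-22727199 on the plus strand for IL6 and at chr19:55370464-55370713 on the minus strand for IL11. Capitals mark a kappaB motif of 10 letters in IL6 and the AP-1 motif TGANTCA in IL11.
IL6 upstream: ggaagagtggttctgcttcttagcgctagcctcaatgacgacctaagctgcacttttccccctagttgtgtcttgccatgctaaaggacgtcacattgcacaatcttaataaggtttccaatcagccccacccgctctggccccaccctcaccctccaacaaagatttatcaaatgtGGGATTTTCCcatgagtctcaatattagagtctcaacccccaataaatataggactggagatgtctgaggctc
IL11 upstream: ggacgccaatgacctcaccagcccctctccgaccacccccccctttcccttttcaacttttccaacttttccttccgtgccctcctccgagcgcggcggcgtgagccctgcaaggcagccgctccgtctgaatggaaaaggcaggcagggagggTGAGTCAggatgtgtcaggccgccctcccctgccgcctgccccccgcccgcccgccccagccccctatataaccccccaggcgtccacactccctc

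The kappaB match of IL6 begins at position -73 from the start site and the AP-1 match of IL11 at position -96. The motifs were searched on both strands of windows of 300 bases, 250 before and 50 after the start, and 6 of the 10 members had a window: IL6, IL11, IL6ST, IL6R, IL11RA and LIFR. The kappaB motif was found in IL6 and IL6ST and in 10.8% of all 27305 windows. AP-1 was found in IL11 and IL6R and in 7.76% of all windows, and the STAT motif TTCNNNGAA in LIFR and in 7.88%. The CRE motif TGACGTCA was in no member window and in 1.98% of all. No motif overlapped another in the members, and a match of letters is a description, not a bound site.

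The targeted gene was lower on the array labelled si-THOC2. Probe 1 of THOC2 read 136 with NC and 40.9 with si-THOC2 and probe 2 read 67.3 and 35.1, a mean log2 fold change of -1.03. These signals are processed intensities, that is, the brightness of a spot after the scanner software subtracted the background, and a fold change was taken after each array was divided by its 75th percentile (log2 6.62 with NC and 6.31 with si-THOC2). A gene was called at 2-fold or more, a log2 fold change of 1. The error given with ± is the scanner software's own estimate for the probe, combined over both arrays on the log2 scale. Repeated spots of other probes gave a median technical SD of the log2 fold change of 0.06 for log2 signals over 8 (244 probes). It was 0.11 between 6 and 8 (36 probes) and 0.29 between 4 and 6 (only 6 probes). Neither the scanner error nor the technical SD covers differences between cultures.

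Of the 10 members, 7 had a probe well above background in both conditions, of which 1 was higher (IL6), 1 was lower (IL11) and 5 were not called. Over all 17514 genes compared, 2.96% were higher by 2-fold or more and 3.34% were lower. The median log2 fold change of the 7 members was 0.17, against 0.02 over all compared genes, of which the middle 90% lay between -0.75 and 0.67. Of the 7, 4 were above 0 and 3 below.

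**Figure D1:**
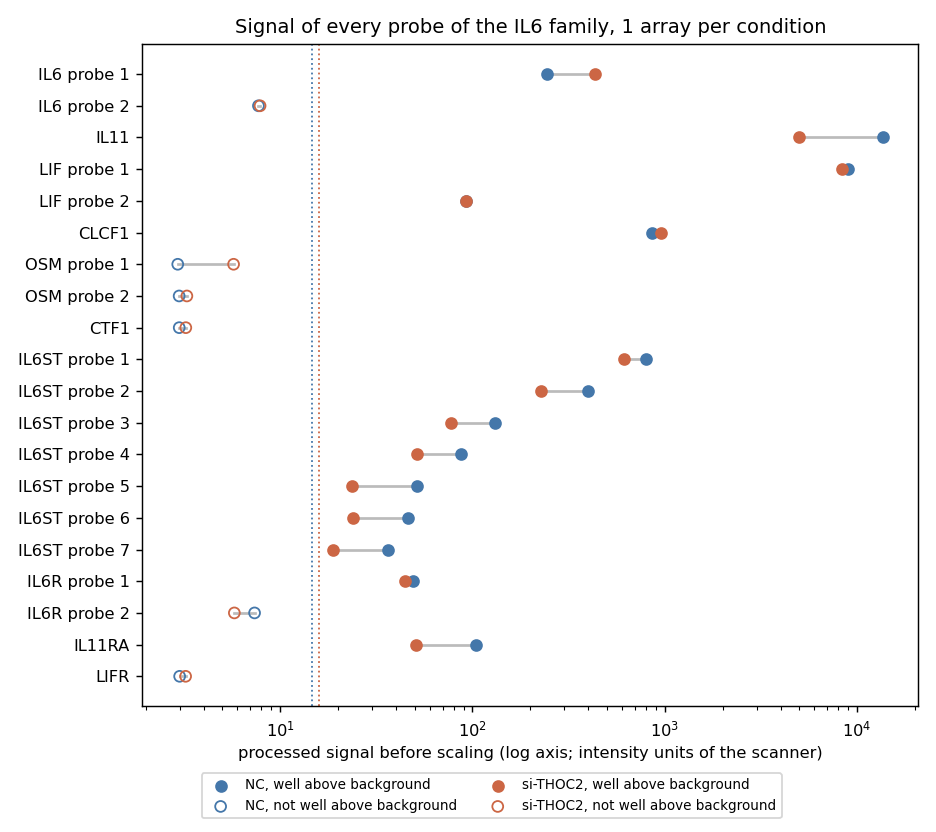
Processed signal (log axis, intensity units) of each of the 20 member probes on the NC array and the si-THOC2 array, joined by a line, before scaling. Open circles were not well above background, and dotted lines mark the lowest signal well above it on each array (14.7 and 15.9). IL11 and LIF probe 1 are bright on both arrays, and 6 probes lie left of the dotted lines.

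IL6, a cytokine of inflammation and the acute phase response, was higher with si-THOC2. Probe 1 read 244 with NC and 432 with si-THOC2, for a log2 fold change of 1.13 ± 0.21, or 2.20-fold higher. The mean brightness of the spot before background subtraction was 274 and 458, over a local background of 24 and 22, so both spots stood clear of the slide. Among the 12373 probes whose log2 signal passed 7 on both arrays, 25 were higher by 2-fold or more (0.202%), and IL6 probe 1 ranked 14 from the highest. IL6 was chosen for being higher on these same arrays, so its rank is a description and supports nothing. Probe 2, on the predicted variant, read 7.72 and 7.87 and was not well above background on either array, so only 1 probe carries the IL6 value. In the region of the slide around probe 1, 2.54% of probes were higher by 2-fold or more and 0.508% lower, and with each region centred on its own median IL6 was at 1.07. The call was lost under 3 alternatives: 0.89 with normexp background correction, which adds an offset of 50 to every signal, 0.74 when the dim probe 2 was averaged in, and 0.83 with no scaling between arrays.

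IL11, a cytokine best known for roles in bone marrow, bone and fibrosis, was lower with si-THOC2. Its single probe was among the bright ones and read 13659 with NC and 4981 with si-THOC2, for a log2 fold change of -1.15 ± 0.20, or 2.21-fold lower. Of the same 12373 bright probes, 18 were lower by 2-fold or more (0.145%), and IL11 ranked 13 from the lowest. This rank too follows a choice made on the same arrays and supports nothing. In its region of the slide 0.549% of probes were higher and 2.75% lower. IL11 stayed past 2-fold under all 12 alternatives to the processing, from -1.46 to -1.15, though several of them could not move its value. The log2 fold changes of IL6 and IL11, the 2 genes the choice rests on, lay 2.28 apart under the reported processing. A stricter call at 3-fold would leave neither gene called.

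**Figure D2:**
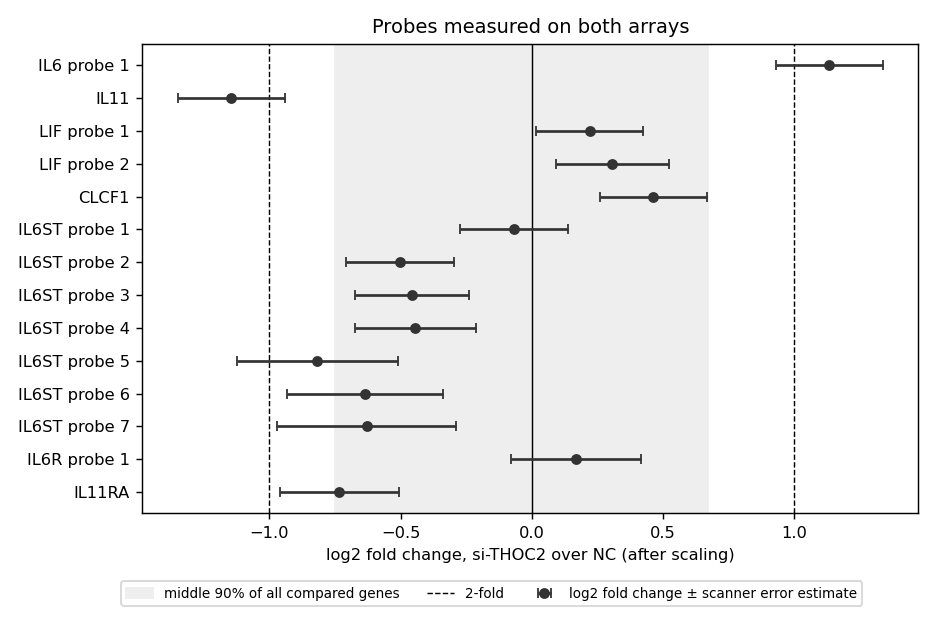
Log2 fold change (si-THOC2 over NC, after scaling) of the 14 member probes well above background on both arrays, with the scanner software's error estimate as bars, dashed lines at 2-fold and a grey band for the middle 90% of all compared genes. IL6 probe 1 and IL11 lie outside the dashed lines on opposite sides, and all 7 IL6ST probes lie left of 0.

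The remaining ligands were not called. LIF, which maintains stem cells and acts in implantation, had 2 probes on the minus strand of 22q12.2. Probe 1 read 8920 with NC and 8393 with si-THOC2 (log2 fold change 0.22 ± 0.20), and probe 2 read 92.2 and 92.0 (0.31 ± 0.22). The 2 LIF probes thus differed from each other by less than either error. CLCF1, a ligand of the ciliary neurotrophic factor receptor, read 863 and 960, a log2 fold change of 0.46 ± 0.20. Its region of the slide held no probe higher by 2-fold and 12.9% of probes lower, and with each region centred its value was 0.51. OSM (oncostatin M, 2 probes) and CTF1 (cardiotrophin 1) were not well above background on either array, with signals from 2.94 to 5.73, and no fold is given for them.

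Among the receptors, IL6ST was the one measured most often, with 7 probes over 34.6 kb of the minus strand of 5q11.2. Each of the 7 stood well above background with NC and with si-THOC2, and all 7 were lower with si-THOC2, none by 2-fold. Their mean log2 fold change was -0.51, with an SD over probes of 0.23. Probes of 1 gene read the same RNA on the same 2 arrays and are not replicates of the condition.

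The IL6ST probe with the strongest signal read 797 with NC and 614 with si-THOC2, for a log2 fold change of -0.07 ± 0.20. The next read 400 and 228 (-0.50 ± 0.21), and the third read 131 and 77.2 (-0.46 ± 0.22). So the strongest probe lay near 0 while its neighbours in brightness did not. The 4 dimmer probes read 87.0 and 51.6 (-0.44 ± 0.23), 51.7 and 23.7 (-0.82 ± 0.31), 46.0 and 23.9 (-0.64 ± 0.30), and 36.3 and 18.9 (-0.63 ± 0.34). The change was larger than the scanner error for 6 of the 7 probes and larger than 2 times the error for 4. Without the strongest probe the mean was -0.58 with an SD of 0.14 over 6 probes, and with it alone IL6ST was at -0.07. The IL6ST mean also depended on the processing, at -0.24 with normexp background correction and -0.82 with no scaling between arrays.

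The flattest and the steepest IL6ST probe are only 0.225 kb apart at the 3′ end of the gene. The flattest (probe 1) is placed at chr5:55230909-55230923, which covers only part of its 60 bases, and the steepest (probe 5) at chr5:55231134-55231193, and the first 30 bases of each are shown for this reason.
IL6ST probe 1: tttgcatgttgaagcctgtataaaacatgg
IL6ST probe 5: agcttagttttagaaacctgtggacattca
Their difference in log2 fold change is set beside the technical SD at their signals, 0.06 for probe 1 and 0.29 for probe 5. The 4 probes annotated to transcript variant 1 had a mean of -0.46 and the 3 annotated to variant 3 a mean of -0.57, and the range of variant 3 (-0.64 to -0.44) lay inside that of variant 1 (-0.82 to -0.07).

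**Figure D3:**
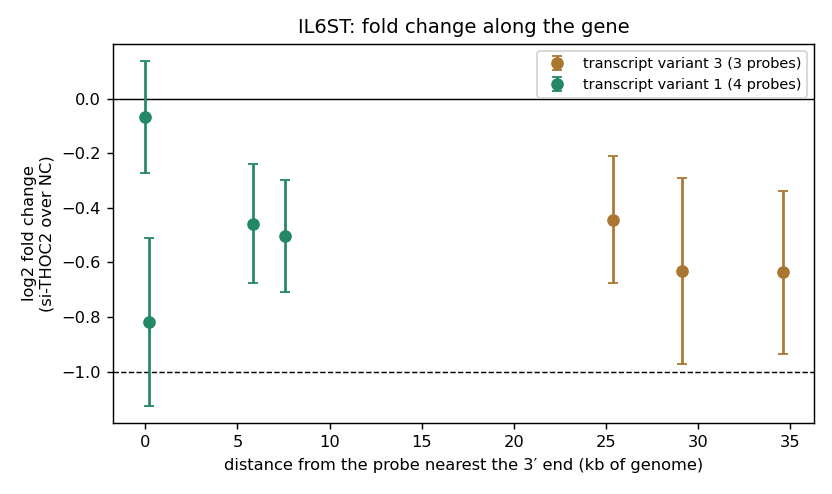
Log2 fold change (si-THOC2 over NC) of the 7 IL6ST probes against their distance in kb of genome from the probe nearest the 3′ end, coloured by annotated transcript variant, with the scanner error as bars. All points lie between the lines at 0 and at 2-fold lower, and the 2 probes at the left edge are the flattest and the steepest.

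IL11RA, the partner receptor of IL11, read 105 with NC and 50.9 with si-THOC2, for a log2 fold change of -0.73 ± 0.23 or 1.66-fold lower, on 1 probe at chr9:34660510-34660569 on the plus strand. It was below 0 under all 12 alternatives, from -1.04 with no scaling, where it passed 2-fold, to -0.39 with normexp. The alternatives that left IL11 unmoved for want of a second or a dim probe could not move IL11RA either. IL6R, the partner receptor of IL6, read 49.1 and 44.5 on its probe of transcript variant 1, a log2 fold change of 0.17 ± 0.25, smaller than its error. Its second probe, on transcript variant 3, and the single probe of LIFR were not well above background on either array.

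**Figure D4:**
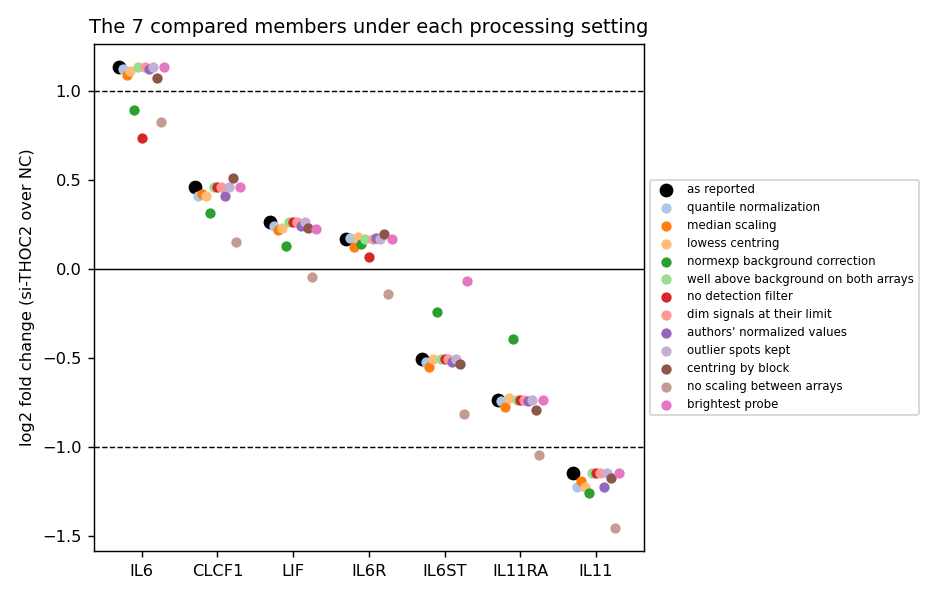
Log2 fold change (si-THOC2 over NC) of the 7 compared members under the reported processing (large black points) and 12 alternatives, with dashed lines at 2-fold. IL6 drops below the upper line under 3 alternatives, IL11 stays below the lower line under all, and LIF and IL6R fall slightly below 0 with no scaling between arrays.

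Other proteins of the gp130 pathway were followed in 8 lists, which share some genes. Each had a median log2 fold change between -0.06 and 0.18, and in 7 of them no gene was called. Over all compared genes 2.96% were higher and 3.34% lower by 2-fold or more. In lists this short, having no called gene is near that share, and nothing is drawn from these counts. Of 9 other ligands and receptors of the family, 4 were compared, with a median of -0.06. OSMR, the receptor subunit of oncostatin M, read 140 with NC and 141 with si-THOC2 on its brighter probe, and its 2 probes had log2 fold changes of 0.33 and 0.35.

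Of 12 genes of JAK-STAT signal transduction, 11 were compared and none was called, with a median of 0.06. JAK1 read 89.2 with NC and 71.8 with si-THOC2 (log2 fold change 0.00), JAK2 read 56.3 and 43.8 (-0.05), and TYK2 read 317 and 311 (0.28). These 3 kinases bind gp130 and its partners, and the values of JAK1 and JAK2 were smaller than their scanner errors. STAT3, the main transcription factor downstream, was at 0.04 and 0.18 on its 2 probes. None of 8 compared inhibitors of the pathway was called (median 0.05). SOCS3, which blocks gp130 and is itself a STAT3 target, read 235 and 240, a log2 fold change of 0.34 ± 0.21. Of 4 genes of receptor shedding, by which soluble IL6R is released, none was called (median -0.01), and ADAM17, the main sheddase, was at -0.11 ± 0.20.

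Of 26 target genes of STAT3, 22 were compared, with a median of 0.03. The measured values of 1 were higher and of 2 were lower by 2-fold or more, against 2.96% and 3.34% of all compared genes, and 19 were not called. For both lower genes the si-THOC2 signal was dim, and no decrease of 2-fold is shown for either. HAMP, the iron hormone hepcidin, read 26.7 with NC and 57.4 with si-THOC2, for a log2 fold change of 1.41 ± 0.28. SAA1, an acute phase protein, read 26.7 and 10.3 and was well above background with NC only. This gives a bound of 1.36-fold lower, which leaves out its scanner error of 0.54 on the log2 scale. LRG1, a secreted glycoprotein, read 16.3 and 4.91 and was above background with NC only. No fold is given because, after scaling, its NC signal does not clear the limit of the other array. The signals of these 3 genes were at most 57.4, against a lowest signal well above background of 14.7 with NC and 15.9 with si-THOC2. Of the brighter targets, chosen after their values were seen, SERPINA3, a protease inhibitor of the acute phase, was at -0.57 to -0.42 on 3 probes. ICAM1, an adhesion molecule, was at -0.46 with an SD of 0.05 over its repeated spots, and PIM1, a kinase, was at 0.62 ± 0.20.

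All 22 regulators of the IL6 transcript were compared and none was called (median 0.05). Of these, IL1B, an inflammatory cytokine that induces IL6, read 905 with NC and 556 with si-THOC2, for a log2 fold change of -0.39 ± 0.20, and MAPK14, a stress kinase, was at 0.67 ± 0.21. Both were chosen after their values were seen. Of 12 regulators of the IL11 transcript, 10 were compared and none was called (median 0.06). TGFB1, which induces IL11, was at 0.28 ± 0.20. Of the AP-1 subunits in this list, FOSL1 and JUN were at -0.10 and -0.05, and FOSL2 and JUND at 0.18 ± 0.30 and 0.41 ± 0.21.

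Cytokines and chemokines under NF-kB, a factor that IL6 shares with them, were set beside the family. Of 16 such genes, 15 were compared and none was called, with a median of 0.18, 9 above 0 and 6 below. The largest positive value was that of CSF3, a growth factor of granulocytes, at 0.80 ± 0.21 (87.0 with NC and 122 with si-THOC2). The largest negative value was that of CCL2, a chemokine for monocytes, at -0.63 with an SD of 0.06 over its repeated spots (1442 and 749). CXCL8 was at 0.18 and CXCL1 and CXCL2, with 2 probes each, at 0.26 and 0.29. IL6 at 1.13 lay above all 15, but the family was chosen because IL6 was higher. Nothing is drawn from that difference, and no test of it could be made.

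**Figure D5:**
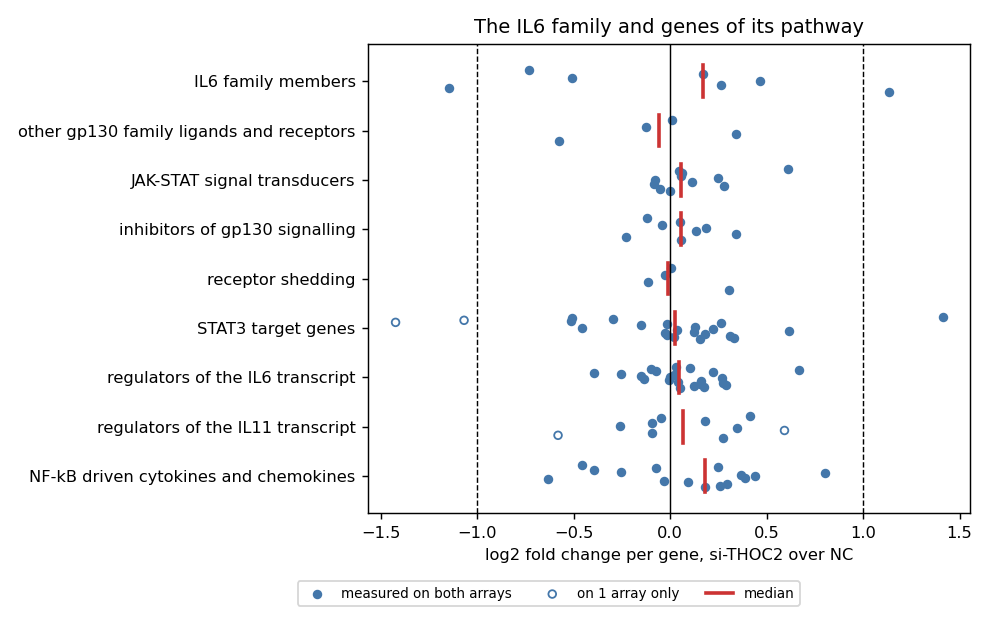
Log2 fold change per gene (si-THOC2 over NC) for the 7 compared members and for each of the 8 pathway lists, with the median in red and dashed lines at 2-fold. Filled points had a probe well above background on both arrays and open points on 1 array only, where the plotted value rests on a dim signal. Apart from IL6 and IL11, the points past the dashed lines are all in the list of STAT3 target genes.

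Genes that mark cell types were read on the same arrays. Each summed signal is over all probes of all genes of a list, also those not well above background. The sums are given before scaling, so that a shift of 0.31 on the log2 scale between the arrays is part of each difference. Of 12 melanoma markers 9 were compared, with a median log2 fold change of -0.03, and all 12 summed to 31221 (NC) and 22758 (si-THOC2). SOX10 (6196 with NC and 5196 with si-THOC2, log2 fold change 0.06) and AXL (-0.22) were bright, and PMEL, TYR and SOX9 were not well above background on either array. MLANA was read with si-THOC2 only (2.94 and 18.7, a bound of 1.58-fold higher with measurement error left out), while DCT was at 0.75 and S100B at -0.66. Of 5 fibroblast markers 2 were compared, and all 5 summed to 268 and 290. COL1A1, COL1A2 and LUM were not well above background on either array, DCN was higher (62.4 and 149, log2 fold change 1.56), and PDGFRB was at -0.10.

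Of 6 immune cell markers 5 were compared, with a median log2 fold change of 0.37, and all 6 summed to 1327 and 1076. Most of that sum was CD79A (1196 and 938, log2 fold change -0.04). The signals of PTPRC (0.39), CD14 (0.37), CSF1R (-0.03) and CD3E (0.87) were at most 37.4. Keratinocyte markers summed to 32407 and 20761, nearly all of it KRT10 (32306 and 20623, log2 fold change -0.34). KRT14 was higher, at a mean of 1.06 over 2 probes (0.62, and 1.49 on a probe well above background on 1 array only), and KRT5 and KRT1 were not well above background. Endothelial markers summed to 86.7 and 68.5, and of the 3 only PECAM1 (log2 fold change 0.43) was well above background on both arrays. CDH5 and VWF were read with NC only, CDH5 from 17.0 to 5.40 with no fold given. VWF had a bound of 1.12-fold lower on its brighter probe, which leaves out a scanner error of 0.41 on the log2 scale. Both arrays hold RNA from cultures of a single cell line, A375, so none of these signals is read as the presence of another cell type.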

How the data were processed

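RNA of A375 cells was measured on 2 arrays, 1 per condition. The deposited intensity of each spot comes from Feature Extraction 10.7.1.1 as run by the authors, after background subtraction and correction of trends over the slide. The authors also deposited normalized log2 values, equal in distribution between arrays (quantile normalization), used as an alternative, and a table of their own fold changes, which was not used. The Student's t-test of the methods needs replicates and was not run.

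Outlier spots (147 with NC, 168 with si-THOC2) and control spots were removed, none was saturated, and spots of a probe were averaged as log2. Each array was reduced by its 75th percentile, a shift of 0.31 between arrays. Of 58199 probes, 42.3% (NC) and 39.4% (si-THOC2) were well above background, which for repeated probes means on most of their spots. Gene values are means over the probes that either array read well above background. Slide regions are a grid of 16 by 8. Where 1 array was dim, the fold is a bound against the lowest signal well above background there. Such a bound leaves out measurement error and is not a firm limit. The number of arrays limits the precision. All 146 list symbols were found. The code for scaling and calls was tested on simulated data, which says nothing of the calls reported. Python 3.11.15, numpy 2.4.6, pandas 2.3.3, statsmodels 0.14.6, R 4.3.3 and limma 3.58.1 (normexp, offset 50) were used.

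Named were all members, THOC2, OSMR, JAK1, JAK2, TYK2, STAT3, SOCS3, ADAM17 and the called genes of each pathway list, at most 6 a list. TGFB1, FOSL1, FOSL2, JUN, JUND, CXCL8, CXCL1, CXCL2, CSF3 and CCL2 were added after their values were seen, as were those marked so in the text. The members and lists were chosen with earlier results of these data known. Some genes of the lists are not reported here.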

Additional observations from a re-analysis of the deposited data

How the results depend on the processing

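No paired analysis was possible because each group holds a single array. Of 12 alternatives, 1 (no scaling between arrays) was chosen after seeing the data, and it moved the median of all genes from 0.02 to -0.29, while no detection filter moved it to 0.24. IL6 kept its direction under all 12 and its call under 9. It was 0.89 with normexp, 0.74 with no detection filter, 1.07 with centring by slide region and 0.83 with no scaling. Requiring both arrays, setting dim signals to the limit or taking the brightest probe could not move IL6 or IL11. Each had 1 compared probe, well above background on both arrays. For IL11, no detection filter could not move the value either. Keeping outlier spots left IL6 at 1.13 and IL11 at -1.15. The authors' values are themselves quantile normalized, so they nearly repeat that alternative (1.12 for IL6 under both). The 12 alternatives are thus not 12 separate checks. IL11 kept its call under all 12 (-1.23 with quantile normalization, with lowess centring and with the authors' values, -1.26 with normexp, -1.46 with no scaling). THOC2 was -0.51 with normexp, -1.34 with no scaling and -1.42 with its brightest probe alone. No member was called higher (0) with normexp, with no detection filter, with no scaling or at 3-fold, and 2 were called lower with no scaling and 0 at 3-fold.

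Over all probes, 743 were higher and 844 lower. These counts were 79 and 33 with normexp, 184 and 81 with probes well above background on both arrays, 3127 and 1929 with no detection filter, 476 and 225 with dim signals set to the limit, and 447 and 502 at 3-fold, and 1511 were lower with no scaling. Of the genes called, 53.0% were lower, against 41.2% with lowess, 27.0% with normexp, 29.6% with both arrays required, 36% with no filter, 31.1% with dim signals set to the limit and 72.5% with no scaling.

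With no scaling the list medians were -0.37 (other ligands and receptors), -0.25 (JAK-STAT), -0.25 (inhibitors), -0.32 (shedding), -0.28 (STAT3 targets), -0.26 (IL6 regulators), -0.25 (IL11 regulators) and -0.13 (NF-kB cytokines). With normexp they were -0.18 (other ligands and receptors), -0.081 (shedding) and 0.081 (NF-kB cytokines), and with no detection filter 0.34 (other ligands and receptors) and 0.13 (STAT3 targets). With quantile normalization and with the authors' values STAT3 targets were at -0.042 and NF-kB cytokines at 0.11, as the latter were with lowess, and 0.12 with centring by region. The cause of these shifts was not tested.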
